A study of Schizosaccharomyces pombe with 4 samples.

Results

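In fission yeast, 151 mRNAs had less signal in the libraries labelled *exo2*Δ than in wild type (WT), against a transcriptome in which most mRNAs had more. They were chosen as the annotated mRNAs of chromosomes I, II and III with a mean WT density of 0.1 tag/nt or more and a ratio of mean densities (*exo2*Δ-labelled over WT) under 0.8. Of the 5118 chromosomal mRNAs in the table of 9139 features, 4361 reached this WT density, and the 151 mRNAs were 3.46% of those. A density is the number of reads on a feature divided by its length, normalized by the authors on the level of sn(o)RNAs (small nuclear and nucleolar RNAs). Because the choice used the densities of all 4 libraries, the differences between strains given for these mRNAs are a description and no test of them.

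Exo2 is the cytoplasmic 5′-3′ exoribonuclease of fission yeast, called Xrn1 in other eukaryotes, and it degrades decapped mRNAs as well as the unstable antisense-rich lncRNAs named XUTs (Xrn1-sensitive unstable transcripts). Many of the mRNAs described here code for ribosomal proteins, translation factors and glycolytic enzymes, the housekeeping transcripts that dominate the mRNA pool of growing yeast. Ribosomal proteins are coded in fission yeast by families of near-identical gene copies, and many of their promoters carry a short element known as HomolD in the place where other genes have a TATA box.

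The study sequenced total RNA, depleted of rRNA, from 2 biological replicates of strain YAM2394, labelled WT, and 2 of strain YAM2397, labelled *exo2*Δ, both taken during exponential growth. Both are haploids of the same mating type with mutations in *ade6*, *ura4* and *leu1*, and the second carries a kanMX4 cassette at *exo2*. The libraries were strand-specific and held between 46964618 and 51019820 reads on the features used here, of which 28.9% to 36.1% were still on rRNA. The density of *exo2* itself was 0.488 and 0.458 tag/nt in WT compared with 0.663 and 0.636 tag/nt for the libraries labelled *exo2*Δ, so the level over this annotated gene was not lower where the label says that it was deleted. The study states that the strains were checked by PCR and northern blot. The label is used below as a name. In bulk RNA, fewer cells with an mRNA and less of it per cell cannot be told apart.

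The median ratio of the 151 mRNAs was 0.681, with a range from 0.310 to 0.798. Across all 4361 mRNAs of the same minimum WT density the median ratio was 2.04, and only 328 of them (7.52%) had a ratio below 1. The same-numbered pairs of libraries gave medians of 0.661 and 0.697 for the 151 mRNAs. By pair, 147 mRNAs were under 0.8 in the first and 133 in the second, 129 were under 0.8 in both, and none exceeded 0.884 in either. The ratio was below 0.5 for 12 mRNAs. In 150 of the 151, both libraries labelled *exo2*Δ were below both WT libraries, a pattern that 5.45% of the chromosomal mRNAs and 5.88% of all features tested showed and that the choice itself largely sets. In the limma fit over 8826 features, 150 were lower at an adjusted p under 0.05 and 13 were more than 2-fold lower, where 4.23% and 0.918% of all features were, and nothing is read from these counts. In the same fit 84.2% of features, and 88.1% of mRNAs, were higher. Scaling instead on all reads, on mRNA reads or on the median of ratios would shift the log2 ratios by about -0.49, -0.38 or -1.20. The 151 mRNAs become lower still, with small changes of order between mRNAs of nearly equal ratio, but the last shift takes the median mRNA below a ratio of 1, so that every "higher" below holds on the sn(o)RNA scale of the deposited densities.

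**Figure D1:**
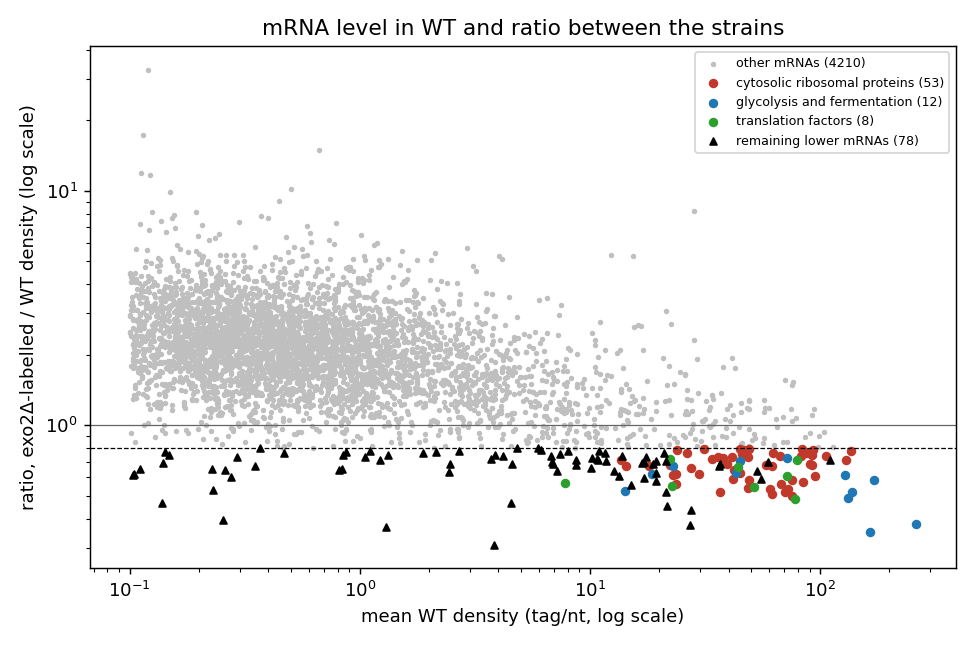
Each point is 1 of the 4361 mRNAs, placed by its mean WT density (tag/nt, log scale) and by its ratio of mean densities, *exo2*Δ-labelled over WT (log scale); the dashed line marks the ratio of 0.8 used to choose and the solid line a ratio of 1. Coloured points and triangles are the 151 lower mRNAs, which crowd at the right, where the whole cloud also comes down towards 1.

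The 151 mRNAs took 27.4% and 27.1% of the reads on mRNAs in the WT libraries and 12.9% and 12.7% in the libraries labelled *exo2*Δ. Their summed density was 5461 and 5435 tag/nt in WT against 3340 and 3532 tag/nt. The median difference between replicates was 0.06 in WT and 0.10 in the strain labelled *exo2*Δ, both as absolute log2 differences per mRNA. Depth was no limit for most: the median count over these mRNAs and libraries was 24054 reads, and only 2 mRNAs had fewer than 50 reads in a library. At the threshold, *chs2*, which codes for a chitin synthase-like protein, lay just inside with a ratio of 0.798. *slt1* lay just outside with 0.80, and the densities of this mRNA were 0.625 and 0.626 tag/nt in WT compared with 0.503 and 0.498 tag/nt for the other strain.

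Where annotated lines overlap on the same strand, reads of one can be counted on the other, and 29 of the 151 lines overlap another feature in this way. Over the coding exons that are free of such overlap, 149 mRNAs still had a ratio under 0.8, with a median of 0.680. The exceptions were *mug106*, whose line shares 20 nt with that of *gpm1* and whose coding exons went from 0.251 to 0.330 tag/nt (ratio 1.31), and *cdc16*, whose line shares 67 nt with that of *rps13* and whose coding exons went from 0.631 to 1.24 tag/nt (ratio 1.96). The lowest ratio of all belonged to *pan3*, a subunit of a poly(A) nuclease, at 4.28 and 3.33 tag/nt in WT compared with 1.25 and 1.11 tag/nt for the libraries labelled *exo2*Δ. Its line contains the rRNA-class feature SPRRNA.15 (ASM294v2, chromosome I, 3547889 to 3548049, on the same strand), which was at 89.6 and 69.2 tag/nt in WT compared with 24.9 and 22.0 tag/nt for the other strain. The coding exons of *pan3* were at only 0.310 tag/nt in WT, with a ratio of 0.704.

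The enzymes of glycolysis and alcoholic fermentation formed the group with the largest share of lower mRNAs among the lists tabulated. Of the 16 mRNAs of this list with the minimum WT density, 12 were among the 151. By comparison, 3.46% of all mRNAs with the minimum WT density were among the 151, and 26.1% of those in the highest decile of WT density. The median WT density of this list was 44.0 tag/nt. Over all 18 listed mRNAs, 12 were lower and 6 higher in the limma fit, where 4.32% of all mRNAs were lower. For mRNAs among the 151 the choice itself largely sets this call. The median ratio, given here and for the lists below over the mRNAs with the minimum WT density, was 0.624. *pgk1*, phosphoglycerate kinase, was at 165 and 164 tag/nt in WT compared with 58.4 and 57.1 tag/nt for the libraries labelled *exo2*Δ, a ratio of 0.350. *gpm1*, phosphoglycerate mutase, had the highest WT density of the 151 mRNAs, 258 and 265 tag/nt, and came down to 99.0 and 98.7 tag/nt. Both were among the 5 lowest ratios, with replicates that nearly coincide.

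The aldolase mRNA *fba1* was at 138 and 126 tag/nt in WT compared with 65.8 and 63.4 tag/nt for the other strain. *pyk1*, pyruvate kinase, which makes pyruvate at the end of the pathway, was at 141 and 135 tag/nt and then at 69.2 and 74.3 tag/nt. *tpi1*, triosephosphate isomerase, was at 168 and 174 tag/nt and then at 96.6 and 104 tag/nt. For these mRNAs both libraries labelled *exo2*Δ were below both WT libraries, which the choice itself largely sets and which 5.45% of the chromosomal mRNAs showed. *tdh1*, a glyceraldehyde-3-phosphate dehydrogenase, had a ratio of 0.614, *hxk2* (hexokinase) 0.526, *pfk1* (phosphofructokinase) 0.621, *adh1* (alcohol dehydrogenase) 0.628, *pgi1* (glucose-6-phosphate isomerase) 0.668, *pdc101* (pyruvate decarboxylase) 0.705 and *eno101* (enolase) 0.726. The enzymes of the list were not all alike: *hxk1*, the other hexokinase, was at 8.34 and 7.85 tag/nt in WT compared with 9.64 and 10.1 tag/nt for the libraries labelled *exo2*Δ. *adh4*, a second alcohol dehydrogenase, was at 2.16 and 1.99 tag/nt and then at 4.36 and 4.22 tag/nt, the highest ratio of the list at 2.07.

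**Figure D2:**
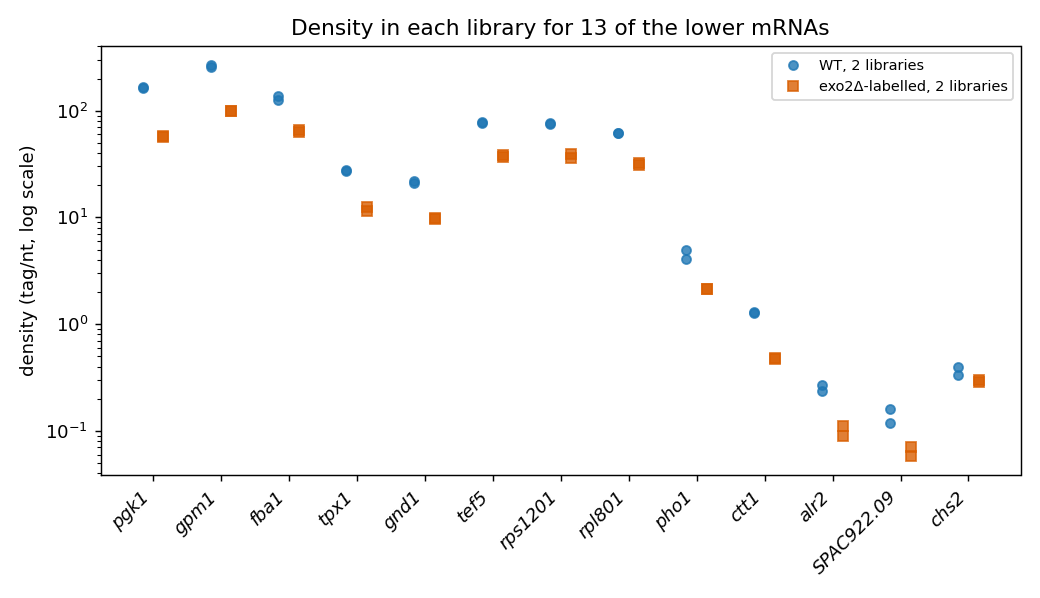
Density (tag/nt, log scale) of 13 of the lower mRNAs in each of the 4 libraries, with circles for the 2 WT libraries and squares for the 2 libraries labelled *exo2*Δ. The circles lie above the squares for every mRNA shown, with replicates close together for abundant mRNAs such as *pgk1* and further apart for scarce ones such as SPAC922.09, and *chs2*, next to the threshold, has the smallest gap.

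Ribosomal protein mRNAs were the largest group by number. Of 136 cytosolic ribosomal protein genes, 53 were among the 151. Over the whole list 70 were lower, 32 higher and 34 passed neither way in the limma fit, with a median ratio of 0.876. Of all mRNAs with the minimum WT density 3.46% were among the 151, and of the highest decile of WT density 26.1%. Over all mRNAs tested, 4.32% were lower and 88.1% higher. The same shares apply to the lists below, and the median WT density of this list was 41.8 tag/nt. The lowest ratio was that of *rps1201*, coding for the small-subunit protein eS12, at 74.5 and 76.1 tag/nt in WT compared with 36.3 and 39.1 tag/nt for the libraries labelled *exo2*Δ. The highest belonged to *rpl3002*, coding for the large-subunit protein eL30, at 1.59 and 1.77 tag/nt and then 4.27 and 4.54 tag/nt. The mRNAs of this single complex therefore spanned a range of ratios from 0.50 to 2.62, on both sides of 1. Other low members were *rpl801* (large subunit, 61.3 and 62.4 tag/nt in WT, then 30.8 and 32.4 tag/nt), *rpp102* (acidic stalk protein P1, 36.9 and 36.8, then 18.7 and 19.6 tag/nt) and *rps602* (small-subunit protein S6, 68.8 and 71.5, then 35.5 and 37.6 tag/nt). *rps7* and *rps801*, the ribosomal protein mRNAs with the highest WT density among the 151, had ratios of 0.774 and 0.712.

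Gene copies for the same ribosomal protein could lie on different sides of the threshold. With 53 of 136 genes of the list among the 151, split families also arise where copies fall without regard to family. Whether they were more or fewer than that was not tested. Among 45 families of 2 or 3 genes with the same RefSeq product, 6 had all copies among the 151, 22 had some and 17 had none. Copies with differently worded products were left out, such as *rps602* and *rps601* (ratios 0.521 and 0.969) or *rps001* and *rps002* (0.657 and 0.924). The lower ratio went with the higher WT density for *rps602* (70.2 against 49.2 tag/nt). For *rps001* it went with the lower WT density (27.5 against 41.9 tag/nt). In the 22 families that were split, the ratios of the copies with the highest and the lowest ratio differed by a median of 1.66-fold, from 1.22 to 3.23. Of these copies, the one with the lowest ratio had the higher WT density in 17 of the 22 families. The same held in most families that were not split, and the WT density is also the denominator of the ratio. Against *rps1201*, the second eS12 gene *rps1202* was at 47.4 and 50.4 tag/nt in WT compared with 57.1 and 68.1 tag/nt for the other strain. Against *rpl801*, *rpl803* was at 21.2 and 22.2 tag/nt and then at 30.6 and 33.6 tag/nt, and *rpl802* at 21.8 and 23.1 tag/nt and then at 23.2 and 26.3 tag/nt, so the 3 uL2 copies had ratios of 0.510, 1.10 and 1.48. A ratio over 1 depends on the scaling, and those of *rps1202* and *rpl802* come below 1 under each of the 3 other scalings.

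The copy *rpl1102* (uL5) was at 83.3 and 85.8 tag/nt and then at 45.4 and 51.2 tag/nt, while *rpl1101* was at 27.1 and 28.8 tag/nt and then at 26.3 and 30.3 tag/nt. The largest spread was that of uL13: *rpl1602* had a ratio of 0.621, *rpl1601* of 0.912 and *rpl1603*, the scarcest, at 0.690 and 0.771 tag/nt in WT, of 2.00. The families are uncertain in one respect. The copies are close to identical in their coding sequence, and the authors computed mRNA densities from reads that map to a single place, so reads that match several copies are missing from the density of each.

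**Figure D3:**
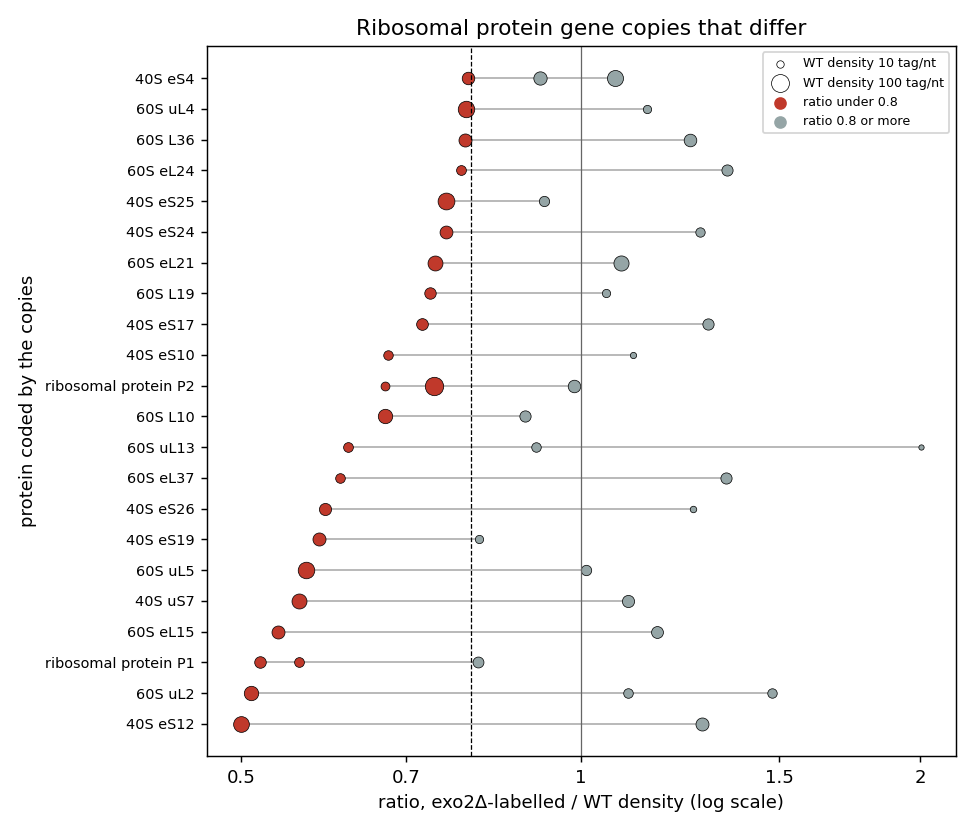
Ratio of mean densities (*exo2*Δ-labelled over WT, log scale) for the copies of the 22 split ribosomal protein families, grouped by the same RefSeq product. Each family shown has copies on both sides of 0.8 (dashed line), and the solid line marks 1. Each row is a protein and each circle a gene copy, red under 0.8 and grey from 0.8 on, with its area growing with the WT density, and the larger circle is more often the red one.

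The promoters of these genes were read from the RefSeq sequence (assembly ASM294v3, which is not the ASM294v2 build of the densities) from 250 nt before to 50 nt after each RefSeq gene start, because a shared element is one thing that the choice of the 151 mRNAs did not use. All 151 matched a RefSeq gene. The HomolD letters CAGTCACA, searched on both strands, were found in 40 of 53 ribosomal protein promoters of the 151 (75.5%), in 47 of the 83 other ribosomal protein promoters (56.6%), and in 137 of all 5110 promoters (2.68%). Among the 98 lower mRNAs that code for no ribosomal protein, 10 had it (10.2%), and 1 of the 12 glycolysis and fermentation promoters did. Among the other mRNAs of the highest decile of WT density the share was 18.4% with ribosomal protein genes included, and 13 of 243 (5.35%) without them. The first base of the element lay a median of 50.5 nt before the start, with quartiles at 46.2 and 55.8 nt. The following 30-base windows, written 5′ to 3′ on the strand of the gene with the element or its reverse complement in capitals, show it in lower copies and in a copy of the same protein or complex whose ratio was near or above 1.
rps1201 (III:553102-553131, + strand, ratio 0.50): ccctatttattTGTGACTGttttttgggta
rpl801 (I:4251477-4251506, - strand, ratio 0.510): atgaccgaaaaCAGTCACAttttacaacaa
rpl803 (II:601191-601220, + strand, ratio 1.48): ggtcgttaaagCAGTCACAtgtacactgtt
rps602 (I:3319179-3319208, + strand, ratio 0.521): taatcgaacatTGTGACTGtttaaaaaagt
rps601 (I:187617-187646, - strand, ratio 0.969): ctatcccaaatTGTGACTGctcttagagga
rpp102 (II:4009431-4009460, - strand, ratio 0.520): ggcaaataaaaCAGTCACActactttacac
rpl3002 (I:5095916-5095945, - strand, ratio 2.62): gtttggatttaTGTGACTGtttttcttgga

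The element was thus present on both sides of the threshold, and in either orientation: 31 matches of the 53 ribosomal protein promoters read forward and 11 reverse. The pair *rpl701* and *rps1402*, transcribed apart from lines 16 nt from each other, share their 2 matches, 1 in each orientation. The letters ACCCTACC, part of the HomolE element and added after the values were seen, were in 15 of the 53 promoters (28.3%), in 26 of the 83 others (31.3%) and in 1.62% of all. Of the other motifs searched on both strands, TGACGT, the core that Atf1-type factors bind, was in 11.3% of the 151 promoters and in 5.91% of all. The shares for CCAAT were 41.1% and 42.2%, for TATAAA 39.7% and 48.0%, for GTAAACA 17.2% and 16.5%, and for AGATAA 19.9% and 24.3%. The rest were ACGCGT (4.64% and 3.25%), CCCCT (11.3% and 10.4%), GAANNTTC (9.93% and 11.1%) and TTCTTTGTT (0.662% and 2.00%). The motifs partly overlap in letters with chance occurrences of each other, and a match is only a run of letters.

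The remaining translation machinery was also represented. Of 18 translation factors, 8 were among the 151, and over the list 8 were lower and 8 higher in the limma fit, with a median ratio of 0.964. The 8 were elongation factors and eIF5A, while the highest ratio of the list, 3.01, was that of *tif212*. *tef5*, the guanine nucleotide exchange subunit of elongation factor EF-1, was at 77 and 79.0 tag/nt in WT compared with 37.2 and 38.8 tag/nt for the libraries labelled *exo2*Δ. The 3 copies for EF-1 alpha, which brings aminoacyl-tRNA to the ribosome, had ratios of 0.545 (*tef101*), 0.610 (*tef103*) and 0.716 (*tef102*). The 2 copies for the translocase EF-2 had ratios of 0.550 (*eft202*, 23.5 and 22.1 tag/nt, then 12.1 and 13 tag/nt) and 0.570 (*eft201*, 8.20 and 7.41 tag/nt, then 4.41 and 4.49 tag/nt). The fungal factor eEF3 (*tef3*) had 0.664 and the eIF5A gene *tif512* 0.710. The copies for EF-1 alpha and for EF-2 thus all lay under 0.8.

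Some further mRNAs with a role in translation are named here after their values were seen, and stand for no list. SPAC29A4.02c, the gamma subunit of EF-1, had a ratio of 0.598, *cpc2* (the ribosome-bound RACK1 protein) 0.638, *btf3* (the beta subunit of the nascent polypeptide-associated complex) 0.520, and the ubiquitin and ribosomal protein fusion genes *ubi5* and *ubi3* 0.590 and 0.709. Their counterparts were not among the 151: *ubi1* and *ubi2*, the other ubiquitin and ribosomal protein fusion genes, had ratios of 1.28 and 1.02, and *egd2*, the alpha subunit of the nascent polypeptide-associated complex, had 0.850. A list of aminoacyl-tRNA synthetases, made after the values were seen, had 8 of 35 mRNAs among the 151, from *vrs1* (valine, 0.686) to *rar1* (methionine, 0.797), with *gus1*, *krs1*, *trs1*, *srs1*, *grs1* and *prs1* between. Over the 36 synthetases tested, 12 were lower and 17 higher, with a median ratio of 1.04.

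Metabolic enzymes beyond glycolysis made up smaller groups. Of 7 pentose phosphate genes (a list also made afterwards) 3 were among the 151: *gnd1*, the phosphogluconate dehydrogenase that makes NADPH, *tal1* (transaldolase, 0.696) and *tkt1* (transketolase, 0.707). Another 3 of the 7 were higher, the median ratio was 1.01, and the highest was that of *sol1* with 3.17. *gnd1* was at 22.0 and 21.2 tag/nt in WT compared with 9.70 and 9.96 tag/nt for the libraries labelled *exo2*Δ. Of 47 amino acid synthesis genes, again a list made after the values were seen, 7 were among the 151: *leu1* (0.581), *asn2* (0.650), *trp2* (0.658), *ilv5* (0.669), *lys9* (0.686), *lys12* (0.691) and *aro2* (0.712). Over that list 11 were lower and 31 higher, with a median ratio of 1.28. *leu1* is one of the genes mutated in both strains. Of 27 ergosterol genes, *erg12* (mevalonate kinase, 0.801 and 0.828 tag/nt, then 0.509 and 0.540 tag/nt) and *erg31* (C-5 sterol desaturase, ratio 0.745) were among the 151, and over that list 3 were lower and 20 higher.

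Single stress genes stood among the lowest ratios while their lists as a whole did not. *ctt1*, catalase, which breaks down hydrogen peroxide, was at 1.31 and 1.28 tag/nt in WT compared with 0.477 and 0.475 tag/nt for the libraries labelled *exo2*Δ. *tpx1*, a thioredoxin peroxidase that signals peroxide to Pap1 and Sty1, was at 27.7 and 27.5 tag/nt and then at 12.5 and 11.5 tag/nt. Both were under 0.5 with close replicates. Of 16 genes of the Sty1-Atf1 stress response with the minimum density, *ctt1*, *hsp9* (0.675) and *gpd1* (glycerol-3-phosphate dehydrogenase, 0.70) were among the 151, and over all 21 listed, 5 were lower and 13 higher, with a median ratio of 1.36. Of 17 oxidative stress genes linked to Pap1, only *tpx1* was among the 151, and 14 were higher. Among 15 heat shock and chaperone genes the 2 members were *sti1* (0.716) and the disaggregase gene *hsp104* (0.762), with 5 lower and 6 higher over the list.

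The remaining mRNAs under 0.5 were mixed. *pho1*, the secreted acid phosphatase induced by phosphate starvation, was at 4.98 and 4.10 tag/nt in WT compared with 2.11 and 2.13 tag/nt for the other strain, and it was the only one of 7 phosphate genes among the 151. *alr2*, an alanine racemase, was at 0.236 and 0.272 tag/nt and then at 0.0888 and 0.111 tag/nt. SPAC922.09, an uncharacterized open reading frame, was at 0.117 and 0.159 tag/nt and then at 0.0706 and 0.0584 tag/nt, and its smallest count was 11 reads, the fewest of any of the 151.

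Most other tabulated groups had none or few mRNAs among the 151, which are 3.46% of the mRNAs with the minimum density. Over all mRNAs tested 88.1% were higher, so the counts of a short list are not read as a trait of it. None of the core histones (10 of 10 higher), hexose transporters (8 of 8 higher), iron genes (14 of 15 higher), nitrogen and amino acid uptake genes (17 of 20 higher), proton pump and vacuolar ATPase genes (16 of 17 higher) or cell cycle genes (21 of 21 higher) was among the 151. The thiamine, mating, cell wall, actin and tubulin, and one-carbon and sulfur lists had none either, with at most 1 lower mRNA in each. Only 5 of the 25 mating and meiosis genes had the minimum WT density, and none of the 13 Tf2 retrotransposon genes did, so these could hardly or not be chosen. *sdh1* (0.797) was the only one of 49 respiratory chain and ATP synthase mRNAs. *fib1*, fibrillarin (0.776), was the only one of 20 nucleolar genes for ribosome synthesis, a list of which 16 were higher, whereas the ribosomal protein list had 32 higher of 136. *pan3* was the only one of 19 genes for mRNA decay. In all, 91 of the 151 belonged to the lists for ribosomal proteins, translation factors, tRNA synthetases, glycolysis, pentose phosphates or amino acid synthesis, and 60 did not. These lists hold 259 of the 4361 mRNAs with the minimum density, and 8, 3 and 7 of the 91 come from the synthetase, pentose phosphate and amino acid lists, which were made after the values were seen.

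The 151 mRNAs were abundant in WT. Their median WT density was 21.6 tag/nt, with quartiles at 6.03 and 50.3, against 0.529 tag/nt for the 4210 other mRNAs. Of the 20 mRNAs with the highest WT density, 14 were among them, and 114 of the 151 lay in the highest decile, where they made up 26.1% of the mRNAs. The median ratio of all mRNAs came down over the deciles from 2.44 in the lowest to 1.64 in the ninth and 1.04 in the highest. Across the transcriptome the ratio was thus lower where the WT density was higher. The WT density enters both this ordering and the ratio. A smaller set was scarce: 20 of the 151 had a WT density under 1 tag/nt, of which 11 contained an intron, against 44 of the other 131. The 11 were 55% of the scarce set, and 49.5% of the other mRNAs under 1 tag/nt contained an intron. In the highest decile the shares were 32.5% for the 151 and 40.1% for the others.

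**Figure D4:**
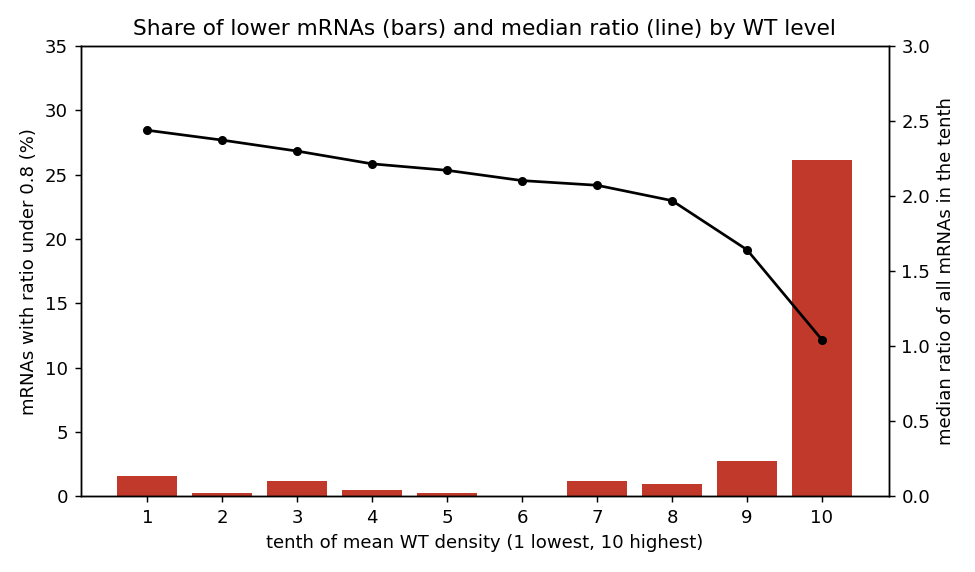
Bars give the percentage of mRNAs with a ratio under 0.8 in each decile of mean WT density, on the left axis, and the line gives the median ratio of all mRNAs of the decile, on the right axis. The bars stay between 0% and 2.75% up to the ninth decile and reach 26.1% in the highest, while the line comes down from 2.44 to 1.04.

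They were also short. The median length was 1320 nt against 1922 nt for the other mRNAs, and within the highest decile of WT density 1090 nt against 1436 nt. The coding part was 918 nt against 1166 nt. The parts outside it were shorter too, with a 5′ UTR of 83 nt against 162 nt and a 3′ UTR of 133 nt against 254 nt as medians. Within the highest decile, the 5′ UTRs were 76.5 nt against 101 nt and the 3′ UTRs 133 nt against 196 nt. Not all of the 151 were alike in this. The 91 mRNAs of the lists named above had a median length of 973 nt and a coding part of 750 nt. The 60 outside them had 1732 nt and 1146 nt, nearer to the other mRNAs, with UTRs of 95.5 nt (5′) and 150.5 nt (3′). Introns interrupted 36.4% of the 151 coding sequences and 48.1% of the others. By chromosome, 74 lay on I, 55 on II and 22 on III.

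Some of the 151 were neighbours. There were 10 pairs of adjacent genes, of which *gpm1* with *mug106* and *rps13* with *cdc16* are the overlapping lines described above. The divergent pairs were *tef103* with *thf1* (a trifunctional tetrahydrofolate enzyme), whose lines are 377 nt apart, and *rpl701* with *rps1402*. The others were *tef102* with *rpl1602*, SPAC29A4.02c with *aif1*, *chs2* with *vrs1*, *rps001* with *rpl2701*, *rpp201* with *set6* (a histone methyltransferase) and *rpc37* (an RNA polymerase III subunit) with *rpl2402*. The nearest mRNAs that were not among the 151 and did not overlap them on the same strand were not used in the choice. Of 268 such neighbours tested, 6 were lower and 227 higher, with a median log2 difference of 0.96 against 1.08 for all mRNAs. The 6 included the ribosomal protein genes *rps1602* (17.9 and 17.1 tag/nt, then 13.2 and 15.7 tag/nt) and *rps1101*, the alanyl-tRNA synthetase gene *ala1*, and *ath1*, SPBC1604.04 and SPAC1805.10, named after their values were seen. The count fell when either *exo2*Δ-labelled library was left out, and most neighbours were higher. Over all chromosomal mRNAs tested, 219 (4.32%) were lower, but 150 of these are among the 151. The neighbours leave out the 151, so their count cannot be set against that share.

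An annotated antisense XUT, overlapping by at least 50 nt on the other strand, lay opposite 17 of the 151 mRNAs (11.3%), against 20.1% of the other mRNAs. The authors selected XUTs on these libraries as higher in the strain labelled *exo2*Δ, so their increase is a property of the annotation. In the highest decile of WT density the shares were 3.51% and 4.66%. Among the 20 scarce mRNAs, 9 had an antisense XUT (45%), against 24.4% of the other mRNAs under 1 tag/nt, while 8 of the 131 more abundant ones did. The mRNAs with and without an antisense XUT had median ratios of 0.691 and 0.681, and median WT densities of 0.841 and 23.7 tag/nt.

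The 19 XUTs concerned had a median ratio of 4.28, against 3.88 for all XUTs. The largest ratio was that of XUT0794, which overlaps *ctt1* by 815 nt. It was at 0.00311 and 0.00111 tag/nt in WT compared with 0.134 and 0.159 tag/nt for the libraries labelled *exo2*Δ, while *ctt1* went the other way. The smallest was that of XUT0483, opposite SPAC24H6.10c, an enzyme at the start of aromatic amino acid synthesis, with 2.16. The XUTs reached over the start of the mRNA in 5 cases, opposite SPCC569.03, *asn2*, *mpn1*, *psu2* and *osh2*. Opposite the uncharacterized SPCC569.03, which was at 0.186 and 0.275 tag/nt in WT compared with 0.111 and 0.133 tag/nt for the other strain, XUT0956 was at 0.0341 and 0.0324 tag/nt and then at 0.629 and 0.608 tag/nt. There the antisense signal exceeded the sense signal in the libraries labelled *exo2*Δ. The XUTs opposite abundant mRNAs stayed far below them, as for *rps1201*, whose XUT0052 was at 0.119 and 0.136 tag/nt.

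Annotated lncRNAs that overlap no XUT were not used in the choice, and 43 of them lay opposite 36 of the 151 mRNAs. Of the 39 that could be tested, 14 were lower and 8 higher at an adjusted p under 0.05 in the limma fit, with a median log2 difference of -0.63. Several calls rest on few reads, with examples picked after their values were seen. Lower ones opposite *ilv5* and *rps802* had 6 and 8, and 19 and 15 reads in WT, then 2 and 2, and 2 and 5. A higher one opposite *hsp104* had 1 and 2 reads in WT, then 4 and 3. Among all 1134 such lncRNAs, 9.52% were lower and 44.6% higher. Opposite the other mRNAs, 52 of 551 were lower and 211 higher, with a median of 0.53. Without *exo2*Δ-labelled replicate 2, 9 of those opposite the 151 were lower and 4 higher. Without WT replicate 1, or without *exo2*Δ-labelled replicate 1, 5 were higher.

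The lower antisense lncRNAs lay mostly opposite abundant mRNAs, but so did most of all those tested. novelncTU_77, opposite *pyk1*, was at 0.604 and 0.516 tag/nt in WT compared with 0.186 and 0.205 tag/nt for the libraries labelled *exo2*Δ, a log2 difference of -1.51 ± 0.12 (SE, n = 2 per group, with an adjusted p = 2.0e-05 from limma). novelncTU_122, opposite *gpm1*, was at 0.0653 and 0.0624 tag/nt and then at 0.0227 and 0.0203 tag/nt, a log2 difference of -1.57 ± 0.23. The 15 lncRNAs opposite mRNAs of 50 tag/nt or more had WT densities of 0.0104% to 0.406% of the sense mRNA, with a median of 0.0443%. The lower ones moved in the direction of the sense mRNA at these low levels, and the part that reads assigned to the wrong strand could have in them was not tested.

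Others went up opposite a lower mRNA. novelncTU_356, opposite SPAC29A4.02c, was at 0.0127 and 0.0136 tag/nt in WT compared with 0.0773 and 0.0912 tag/nt for the libraries labelled *exo2*Δ, a log2 difference of 2.66 ± 0.25. SPNCRNA.1628, opposite *set6*, was at 0.0196 and 0.0213 tag/nt and then at 0.0680 and 0.0756 tag/nt. SPNCRNA.1597, which spans the line of *lys9*, was the only abundant one, at 54.5 and 55.6 tag/nt and then at 65.5 and 64.5 tag/nt, while *lys9* had a ratio of 0.686. Its log2 difference was only 0.24, and a rise this small turns to a fall under each of the 3 other scalings. All lncRNAs of this paragraph and the last are named after their values were seen.

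**Figure D5:**
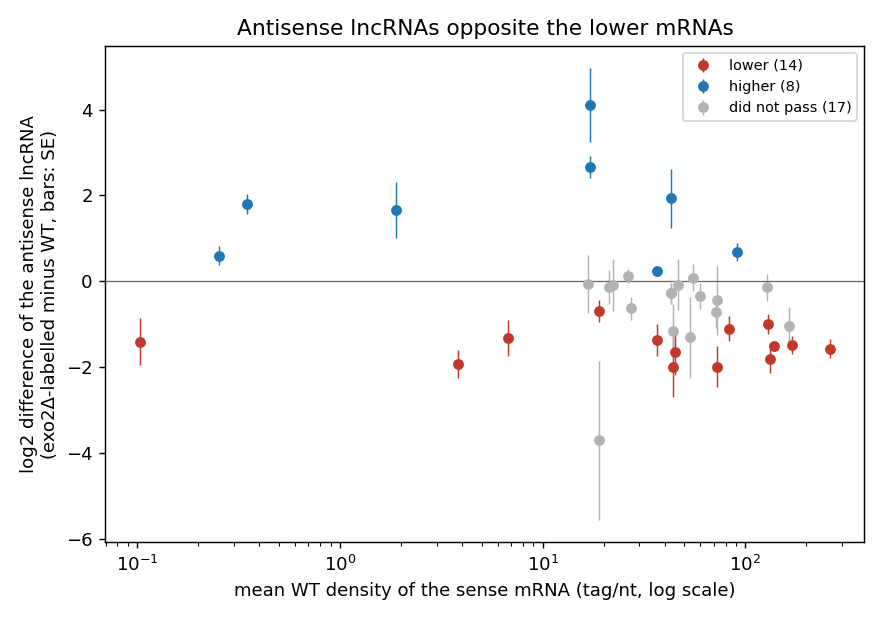
Log2 difference (*exo2*Δ-labelled minus WT, with its SE from limma) of the 39 tested antisense lncRNAs, against the mean WT density of the lower mRNA that each lies opposite (tag/nt, log scale). Red points are the 14 lower and blue points the 8 higher at an adjusted p under 0.05. Most red points are at the right, opposite mRNAs of more than 10 tag/nt, as are most of the 39.

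Of the 151 mRNAs, 3 hold a snoRNA, the class on which the authors normalized the densities. snoR38 in SPAC29A4.02c had a ratio of 0.563 beside 0.598 for its host, snoU24b in *cpc2* 0.639 beside 0.638, and snoR39b in *rpl701* 0.790 beside 0.792. snoU24b was at 241 and 236 tag/nt in WT compared with 155 and 150.1 tag/nt for the libraries labelled *exo2*Δ. Each snoRNA thus moved with its host, and whether reads of the host were counted on it was not tested.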

How the data were processed

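The authors depleted rRNA from total RNA of 2 biological replicates per strain, prepared stranded libraries, mapped paired reads with TopHat on ASM294v2, and deposited for each feature a signal, the density in tag/nt normalized on sn(o)RNA levels. The tool that counted reads on features is not given in the sources used here. In each library, 100% of nonzero densities multiplied by length came out as whole multiples of the value of 1 read (tolerance 0.01), so reads were recovered.

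The replicate columns were used and the deposited columns holding both replicates together were not. limma 3.58.1 in R 4.3.3, with a variance trend, was run on log2(density + 1.55e-04) for the 8826 of 9139 features with at least 10 reads over the 4 libraries, CDS exon lines left out, with Benjamini-Hochberg adjustment, and checked on simulated data. Gene names, products and promoters came from RefSeq (5111 of 5129 genes matched). Python 3.11.15 with pandas 2.3.3, numpy 2.4.6 and biopython 1.88 did the rest.

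The members and lists were chosen with earlier results of these data known. The mRNAs named were the 12 lowest ratios, the 8 highest WT densities, up to 4 of each list with at least 2 members, the pair at the threshold, adjacent members, the extremes of antisense XUT ratio, and *exo2*, and others are named as stated. The alternatives were 3 other scalings, other filters, pseudocounts and thresholds, and leaving out each library.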

Additional observations from a re-analysis of the deposited data

How the results depend on the processing

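The number of mRNAs that count as lower depends on the sn(o)RNA normalization. Scaling on total reads, on mRNA reads or on the median of ratios shifted the log2 ratios by about -0.49, -0.38 and -1.20, with small changes of order. The rule then gave 454, 374 and 1763 mRNAs in place of 151, and the median log2 ratio of the 151, -0.55 as reported, became -1.05, -0.94 and -1.76. In the limma fit, lower features numbered 884, 765 and 2725 (373 as reported), members more than 2-fold lower 88, 62 and 151 (13), and lower neighbours 38, 31 and 122 (6). Antisense lncRNAs that were higher came to 3 under each (8), and those that were lower to 22, 19 and 27 (14, a direction added after seeing the data). A ratio under 0.7 gave 86 mRNAs and one under 0.9 gave 233. At a ratio under 0.7 or a WT density of 1 or more, those with an antisense XUT were 10 and 8 (17), the median WT density was 23.3 and 27.2 tag/nt (21.6) and the median length 1290 and 1264 nt (1320, and 918 over coding exons). Without the variance trend, 306 features and 1 neighbour were lower.

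Leaving out each library gave 142 to 168 mRNAs by the rule, median log2 ratios of -0.58 to -0.54, 312 to 385 lower features, 142 to 149 lower members, 12 to 14 of them more than 2-fold, 9 to 18 lower and 4 to 8 higher antisense lncRNAs, and 1 to 5 lower neighbours. All 49 named mRNAs kept their direction in the 196 values of this kind and under the 3 scalings. The choice largely sets this, since each had a ratio under 0.8 and each scaling shifts the log2 ratios further down. Over coding exons free of overlap, a comparison added after seeing the data, the log2 ratios of *mug106* and *cdc16* turned to 0.39 and 0.97, while the median stayed at -0.56. Replicate numbers were shared by both strains, and deviations of same-numbered libraries correlated at 0.283, but the labels do not say that a number marks a shared batch. With the replicate number as a block, 405 features, 151 members, 8 neighbours and 16 antisense lncRNAs were lower, 13 members were more than 2-fold lower and 7 antisense lncRNAs higher.

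With 2 libraries per strain, permuting them for 1 feature cannot reach 0.05, so p-values depend on the spread that limma pools across features. The level of *exo2* went against its label. Reads on overlapping lines cannot be told apart here, reads that match several gene copies are not in the densities, and XUTs were selected on these libraries.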
